A study of Mus musculus with 8 samples.

Results

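Glycolysis and the hypoxia response were examined through 32 genes: the 2 glucose carriers Slc2a1 and Slc2a3, 14 glycolytic enzymes, 3 regulators of glycolytic flux, 2 lactate carriers, 4 genes of the hypoxia-inducible factor (HIF) pathway and 7 further HIF targets. They were taken by symbol from the 22597 genes of the count table, where 33 rows carried their symbols because Aldoa is listed under 2 identifiers. All 32 genes passed the filter on low counts. The second Aldoa row (ENSMUSG00000114515) lay at 0.165 to 0.395 CPM (counts scaled to a library of fixed size) and was not tested.

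Glycolysis splits glucose into pyruvate in the cytosol and yields ATP without oxygen. Lactate dehydrogenase then turns pyruvate into lactate, which leaves the cell through monocarboxylate carriers. HIF-1 is a pair of proteins, HIF-1α and ARNT, that switches on most of these enzymes together with genes for autophagy, protein folding and collagen synthesis. Prolyl hydroxylases of the EGLN family mark HIF-1α for destruction by the VHL ubiquitin ligase while oxygen is present, so HIF activity is set largely at the protein level, which RNA does not show. Macrophages are known to raise glycolysis when they are activated.

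The libraries hold polyadenylated RNA of macrophages sorted from the lungs of female C57BL/6 mice as interstitial macrophages, which lie in the tissue outside the air spaces. Recipients were CD45.1/CD45.2 IMDTR mice, called Cx3cr1-DTR in the sorting step, whose interstitial macrophages can be killed with diphtheria toxin. They were irradiated with the thorax shielded and given marrow from Tgfbr2fl/fl donors (WT) or from Lyz2Cre Tgfbr2fl/fl donors (labelled TgfBetar2 KO, here Tgfbr2_KO). In the latter, Cre driven from the Lyz2 locus acts in myeloid cells on Tgfbr2, the type II TGF-β receptor, and only these donors carried Cre, so effects of Cre and of Tgfbr2 loss cannot be told apart. Toxin (50 ng) was given after 1 month and cells were taken 10 days later. The protocol gives the recipients' age as 18 weeks and the age label as 12 to 16 weeks. Each genotype had 4 libraries (WT 1 to 4, KO 1 to 4) of 15597300 to 37654100 counts. The labels do not tie libraries to separate mice. A p-value here is thus set by how much these 8 libraries vary, and that variation may be technical.

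WT 1, WT 2 and KO 1 are called lung-rich here because they held more transcripts of other lung cells than WT 3, WT 4 and KO 2 to 4 (the other 5). In CPM, with library sizes scaled by the trimmed mean of M values, the 10 epithelial markers summed to 3129 to 5617 in the lung-rich libraries and 164 to 254 in the other 5. The 10 endothelial markers summed to 2144 to 4172 against 159 to 229, and the 15 interstitial macrophage markers to 12726 to 18473 against 26342 to 27996. KO 1, alone among the KO libraries in being lung-rich, held the most epithelial and endothelial transcripts. WT 3 and WT 4 lay close together in these sums. Tgfbr2 itself, at 474 to 548 CPM in WT and 424 to 576 CPM in Tgfbr2_KO, did not separate the genotypes, and counts of the whole gene do not show the deleted part alone. Lyz2, the locus that carries Cre in the KO donors, was at 7285 to 13193 CPM in WT and 3439.9 to 5611 CPM in Tgfbr2_KO, with no overlap (-1.22 in the set-adjusted fit described next, adjusted p = 0.000147, edgeR). Counts of called glycolysis and hypoxia genes are therefore given over all 8 libraries, in a model that also holds the library set (the set-adjusted fit), and within each set. For most single genes the fold change is given in the set-adjusted fit, and only for some of them in the other fits.

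Over all 8 libraries none of the 32 genes passed the test between genotypes (0 higher and 0 lower, edgeR quasi-likelihood test, adjusted p under 0.05 over 12750 genes). Of all tested genes 0.196% were higher and 0.102% lower. At an unadjusted p under 0.05 there were 4 of the 32 and 1328 of the 12750, and DESeq2 called 2 lower, Vhl and Ero1l, and 152 lower among 17285 genes. In the set-adjusted fit, 13 of the 32 were lower and 2 higher, against 7.89% and 8.59% of all tested genes. The 13 were Slc2a1, the enzymes Aldoa, Tpi1, Gapdh, Pgk1, Pgam1, Eno1 and Pkm, the regulator Pfkfb4, the lactate carrier Slc16a1, Hif1a, Vhl and Ero1l, and the 2 were Hk3 and Ddit4. The median log2 fold change of the 32 was -0.18, with 0.03 over all tested genes. Without WT 3 the set-adjusted fit called 4 lower and without WT 4 it called 2, with 0 higher each time, while the median fold change of the 32 was -0.20 and -0.19. Calls over all tested genes fell in these fits too, to 307 higher and 488 lower and to 318 and 451, from 1095 and 1006. After summing WT 3 with WT 4 and dropping KO 4, only Slc2a1 was called (1 lower, 0 higher). Of all tested genes 0.853% were lower and 0.519% higher. At an unadjusted p under 0.05 in this edgeR fit there were 16 of the 32 and 2515 of the 13480 tested genes. KO 1 and the KO libraries of the other set also moved the counts. Without KO 1 there were 16 lower and 4 higher of the 32, beside 1946 lower and 2047 higher over all tested genes. Without KO 2, KO 3 or KO 4 there were 10, 10 and 8 lower and 0 higher. Over all tested genes these fits gave 728, 681 and 627 lower and 664, 533 and 516 higher.

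**Figure D1:**
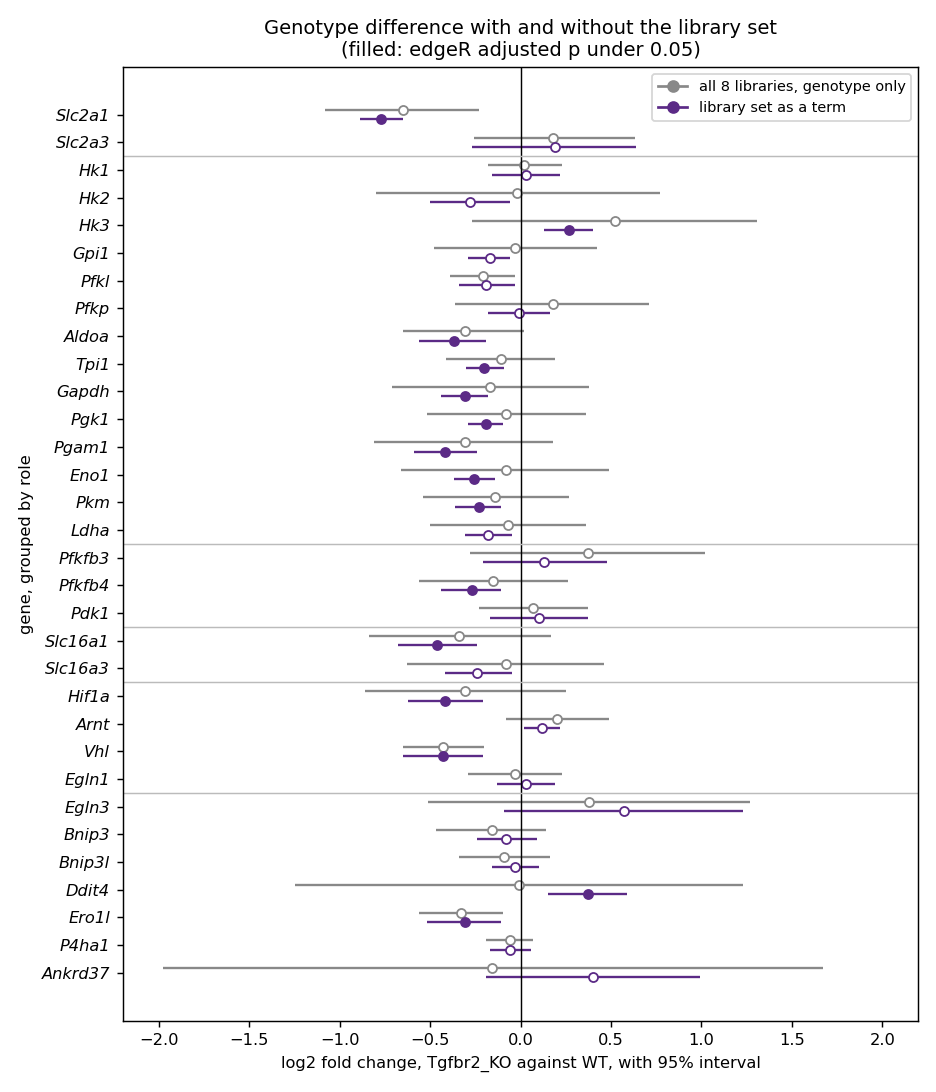
Log2 fold change of each of the 32 genes (rows, grouped by role) in Tgfbr2_KO against WT, with 95% intervals, over all 8 libraries with genotype only (grey) and in the set-adjusted fit (purple). Filled points passed edgeR at an adjusted p under 0.05: none of the grey ones, and 15 of the purple ones (13 lower, 2 higher).

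Slc2a1 encodes GLUT1, the main glucose carrier of the plasma membrane, and it had the lowest fold change of the 32 in the set-adjusted fit. The gene (ENSMUSG00000028645) lies at GRCm38 chr4:119108711-119137983 on the plus strand. It measured 72.9, 66, 100.3 and 99.4 CPM across WT 1 to 4, against 41.3, 54.6, 60.2 and 59.7 across KO 1 to 4. Every KO library lay below every WT library, and in each genotype the lung-rich libraries were the lower ones. Means were 53.9 ± 8.80 CPM in Tgfbr2_KO and 84.7 ± 17.8 in WT (SD, n = 4 each). Over all 8 libraries the log2 fold change was -0.65 (SE 0.18), short of the threshold (adjusted p = 0.22, edgeR), and in the set-adjusted fit it was -0.77 (95% interval -0.89 to -0.65, adjusted p = 0.000181, edgeR). Within the lung-rich libraries the comparison rests on KO 1 alone, whose spread is taken from WT 1 and WT 2. KO 1 held more epithelial transcripts than WT 1 and WT 2 (5617 against 3601 and 3129 CPM). Its interstitial macrophage markers summed to 12726 against 17356 and 18473 CPM. The part of these differences in the Slc2a1 values was not tested. Slc2a1 had -0.78 within the other 5 libraries (adjusted p = 1.6e-10, edgeR) and -0.81 within the lung-rich ones. The difference between these effects was -0.03 (95% interval -0.26 to 0.19, adjusted p = 0.861, edgeR). Slc2a1 remained lower in each of the 8 set-adjusted fits that left out 1 library (-0.81 to -0.75) and after summing WT 3 with WT 4 and dropping KO 4 (-0.80, adjusted p = 0.0247, edgeR).

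Slc2a3 encodes GLUT3, a glucose carrier of higher affinity. It measured 21.8, 13.7, 13.9 and 14.4 CPM across WT 1 to 4, against 14.2, 20.6, 17.8 and 19.9 across KO 1 to 4. The genotypes overlapped, and WT 1 stood apart from the other WT libraries. Slc2a3 rose within the other 5 libraries (log2 fold change 0.46, adjusted p = 0.000461, edgeR), with -0.38 in the lung-rich ones, and did not pass in the set-adjusted fit (0.19, adjusted p = 0.565, edgeR). The difference between the sets did not pass (adjusted p = 0.104, edgeR). Per kilobase of exon, Slc2a3 gave 12.5% to 15.5% of the signal of the 2 carriers in the KO libraries, and 12.7%, 9.13%, 6.29% and 6.55% in WT 1 to 4.

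**Figure D2:**
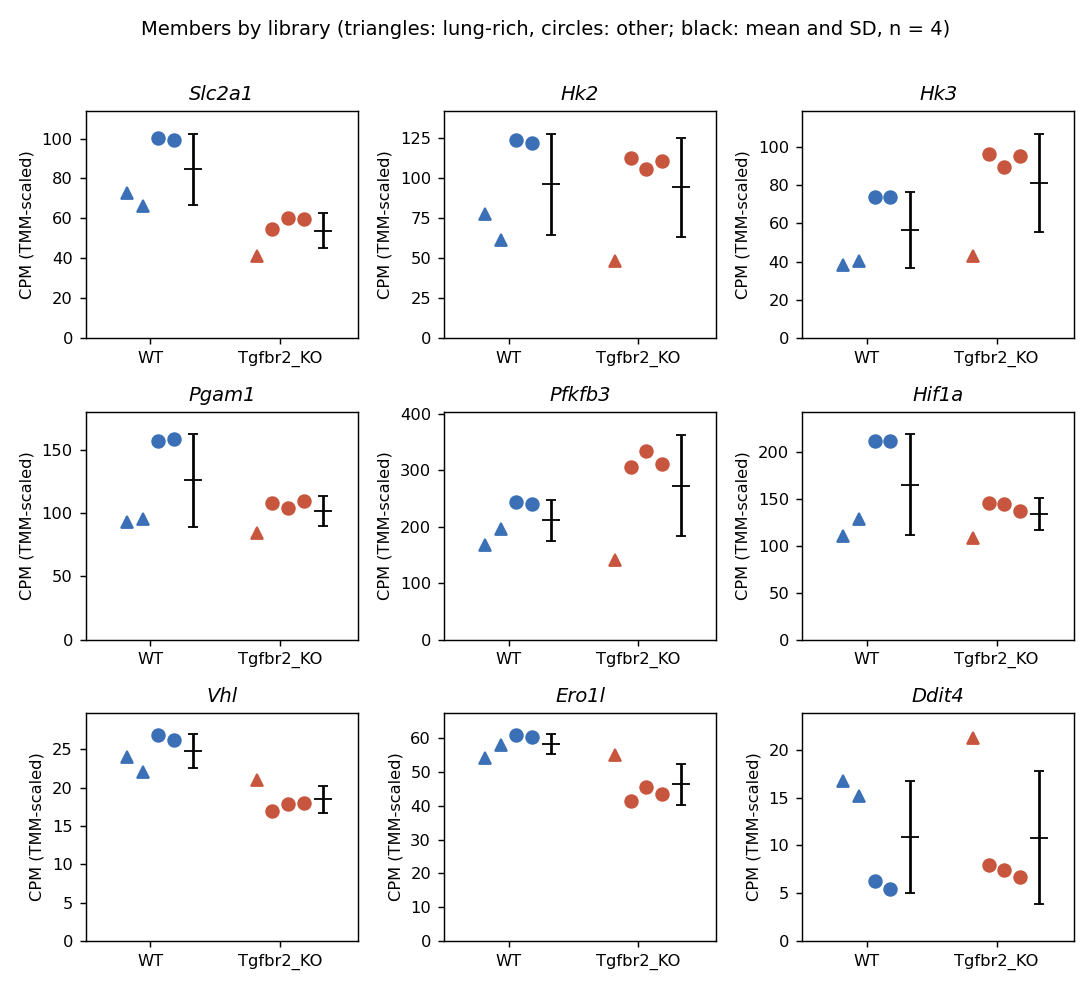
CPM of 9 genes in each library, by genotype (blue WT, red Tgfbr2_KO), with lung-rich libraries as triangles, the others as circles, and the mean and SD of the 4 libraries in black. For Slc2a1 and Vhl the genotypes do not overlap, while Hk2, Hk3, Pgam1 and Ddit4 differ more between library sets than between genotypes.

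The hexokinases trap glucose in the cell as glucose 6-phosphate. Hk3, the hexokinase of myeloid cells (ENSMUSG00000025877, GRCm38 chr13:55005985-55021385, minus strand), was the only enzyme that rose in the set-adjusted fit. It measured 38.2, 40.5, 73.7 and 73.6 CPM across WT 1 to 4, against 42.7, 96.1, 89.5 and 95 across KO 1 to 4. Within each set every KO library lay above the WT ones, but over all 8 the genotypes overlapped. The log2 fold change was 0.27 in the set-adjusted fit (SE 0.06, adjusted p = 0.018, edgeR), 0.35 within the other 5 libraries (adjusted p = 3.9e-06, edgeR) and 0.05 within the lung-rich ones. The call was lost without WT 3, WT 4, KO 2, KO 3 or KO 4. Hk2, the inducible hexokinase, measured 77.5, 61.5, 124 and 122 CPM across WT 1 to 4, against 48.4, 113, 106 and 111 across KO 1 to 4, below WT in each set. It did not pass in the set-adjusted fit (-0.28, adjusted p = 0.0841, edgeR) and fell within the other 5 libraries (-0.15, adjusted p = 0.00634, edgeR). Hk1, the hexokinase found in most tissues, lay at 60.4 to 76.8 CPM in all libraries (set-adjusted fit 0.03, adjusted p = 0.849, edgeR). Per kilobase of exon, Hk3 gave 40.6% and 41.4% of the hexokinase signal in WT 3 and WT 4 and 49.1% to 49.2% in KO 2 to 4, with 32.8%, 38.8% and 40.4% in WT 1, WT 2 and KO 1.

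Below the hexokinases the pathway runs through Gpi1, the phosphofructokinases Pfkl and Pfkp, Aldoa, Tpi1, Gapdh, Pgk1, Pgam1, Eno1, Pkm and Ldha. Over all 8 libraries none of the 14 enzymes passed, and their median log2 fold change was -0.08. In the set-adjusted fit 7 of the 14 fell, 1 rose and 6 did not pass, with a median log2 fold change of -0.20. Of all tested genes 7.89% were lower and 8.59% higher, with a median of 0.03. After summing WT 3 with WT 4 and dropping KO 4, 0 of the 14 were called, with a median of -0.23. Pgam1, a phosphoglycerate mutase (ENSMUSG00000011752, GRCm38 chr19:41911923-41918660, plus strand), had the lowest value of the 14 in the set-adjusted fit. It measured 93.0, 94.9, 157 and 158 CPM across WT 1 to 4, against 84.0, 108, 104 and 109 across KO 1 to 4. WT 3 and WT 4 stood above the other 6 libraries, which lay close together. The log2 fold change was -0.42 in the set-adjusted fit (SE 0.08, adjusted p = 0.00927, edgeR), and the call held in each of the 8 fits that left out 1 library, but not after summing WT 3 with WT 4 and dropping KO 4 (-0.40, adjusted p = 0.105, edgeR).

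Aldoa, the aldolase of most tissues, had -0.37 in the set-adjusted fit (adjusted p = 0.017, edgeR). It was at 237 to 264 CPM in the KO libraries, at 248 and 271 CPM in WT 1 and WT 2, and at 357 and 368 CPM in WT 3 and WT 4. Gapdh, which makes NADH in the pathway, had -0.31 (adjusted p = 0.0105, edgeR), with 563, 633, 940 and 983 CPM in WT 1 to 4 and 502, 766, 759 and 751 CPM in KO 1 to 4. Eno1, Pkm, Tpi1 and Pgk1 had -0.26, -0.23, -0.20 and -0.19 (adjusted p = 0.0122, 0.0224, 0.0221 and 0.0177, edgeR). Each of these 6 calls was lost without WT 4, but over the 8 fits that left out 1 library the fold changes ran from -0.51 to -0.35 for Aldoa, -0.35 to -0.29 for Gapdh, -0.32 to -0.22 for Eno1, -0.30 to -0.24 for Pkm, -0.25 to -0.15 for Tpi1 and -0.24 to -0.20 for Pgk1. The calls of Aldoa and Pgk1 were also lost without WT 3, Eno1 without KO 4, Tpi1 without WT 3, KO 3 or KO 4, and Pkm without WT 3, KO 2, KO 3 or KO 4. Ldha, which makes lactate, measured 167, 185, 262 and 268 CPM across WT 1 to 4, against 169, 219, 223 and 227 across KO 1 to 4, and Gpi1 lay at 285 to 410.1 CPM in WT and 242 to 379 CPM in Tgfbr2_KO. They had -0.18 and -0.17 and did not pass (adjusted p = 0.0709 and 0.0534, edgeR). Per kilobase of exon, mean levels of the enzymes in this paragraph ran from 189 CPM in WT and 168 in Tgfbr2_KO for Gapdh down to 40.4 and 37.6 for Tpi1. Aldoa was at 107 and 86 and Pkm at 93.8 and 85.3. The hexokinases and phosphofructokinases lay lower, at 5.3 (Pfkl) to 16.1 (Hk2) in WT. Slc2a1 was at 24.1 in WT and 15.4 in Tgfbr2_KO. Several of these enzymes have near-identical copies elsewhere in the genome, among which salmon may have divided reads; the Eno1 copy Eno1b was at 1.65 to 3.37 CPM.

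Phosphofructokinase catalyses the committed step. Pfkp, the platelet-type subunit, measured 147, 150, 210.1 and 207 CPM across WT 1 to 4, against 125, 230.1, 224 and 228 across KO 1 to 4. It rose within the other 5 libraries (log2 fold change 0.13, adjusted p = 0.00496, edgeR) and had -0.32 in the lung-rich ones, and the difference between the sets passed (0.38, adjusted p = 0.00304, edgeR). Pfkl, the liver-type subunit, was at 34.7 to 35.7 CPM in WT and at 34.9, 28.4, 30.5 and 28.3 CPM in KO 1 to 4. It fell within the other 5 libraries (-0.29, adjusted p = 0.00168, edgeR) and did not pass in the set-adjusted fit (-0.19, adjusted p = 0.0961, edgeR). Pfkp thus gave 78.5% to 80.1% of the signal of these 2 subunits per kilobase in KO 2 to 4, and 74.7% and 74.3% in WT 3 and WT 4. In the lung-rich libraries it gave 64.0% in KO 1 and 67.2% and 68.3% in WT 1 and WT 2. The strand setting of salmon is not stated, and annotated exons of Pfkp overlap those of Pitrm1 (up to 59.3 CPM) on the opposite strand, as Gapdh exons overlap those of Iffo1 (up to 33.3 CPM).

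Within the other 5 libraries 17 of 31 tested genes were lower and 5 higher (edgeR, Ankrd37 not tested), against 18.7% and 19.7% of all tested genes. The 14 enzymes gave 11 lower, 2 higher and 1 that did not pass, with a median log2 fold change of -0.22, where the median of all tested genes was -0.0019. Within the lung-rich libraries KO 1 stands alone for its genotype, and its spread is taken from WT 1 and WT 2. There 1 of 32 was lower, Slc2a1, and 0 were higher (edgeR), against 2.08% and 3.61% of all tested genes. The enzymes had a median log2 fold change of -0.21 in these libraries, with 2 of 14 above 0. Over all tested genes the median was -0.00021, with 50.0% above 0. In KO 2 to 4 against WT 3 and WT 4, sums of markers of other myeloid cells also differed. Markers are counted below as lower or higher where KO 2 to 4 all lay outside WT 3 and WT 4. The share of all tested genes with such an order in these libraries was not counted. Of the 32 genes, 19 were lower and 8 higher by it, so marker counts alone do not show that these lists stand out. The 8 alveolar macrophage markers summed to 146 to 168 CPM in KO 2 to 4 and to 541 and 552 CPM in WT 3 and WT 4, with 4 of 8 lower and 1 higher in all 3 KO libraries. Chil3 made up most of that difference, at 15.8 to 17.6 against 348 and 347 CPM. Ear2, another of these markers, was at 89.8 to 106 against 96.1 and 105 CPM, with overlap. Siglecf lay lower and Marco higher in KO 2 to 4 than in WT 3 and WT 4, both at or under 5.15 CPM in every library. The 9 neutrophil markers summed to 143 to 157 against 204 and 209 CPM (6 of 9 lower), the 6 classical monocyte markers to 734 to 819 against 941 and 954 CPM (2 lower, 1 higher). The 12 immediate-early and heat-shock genes that mark cell handling summed to 15459 to 15577 against 13658 and 13375 CPM (10 higher, 2 lower). The 6 dendritic cell markers summed to 79.6 to 81.1 against 47.9 and 47.8 CPM (3 higher, 1 lower). Chil3, Ear2, Siglecf and Marco were chosen after their values were seen. The part of these cells and genes in the differences of the enzymes was not tested.

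**Figure D3:**
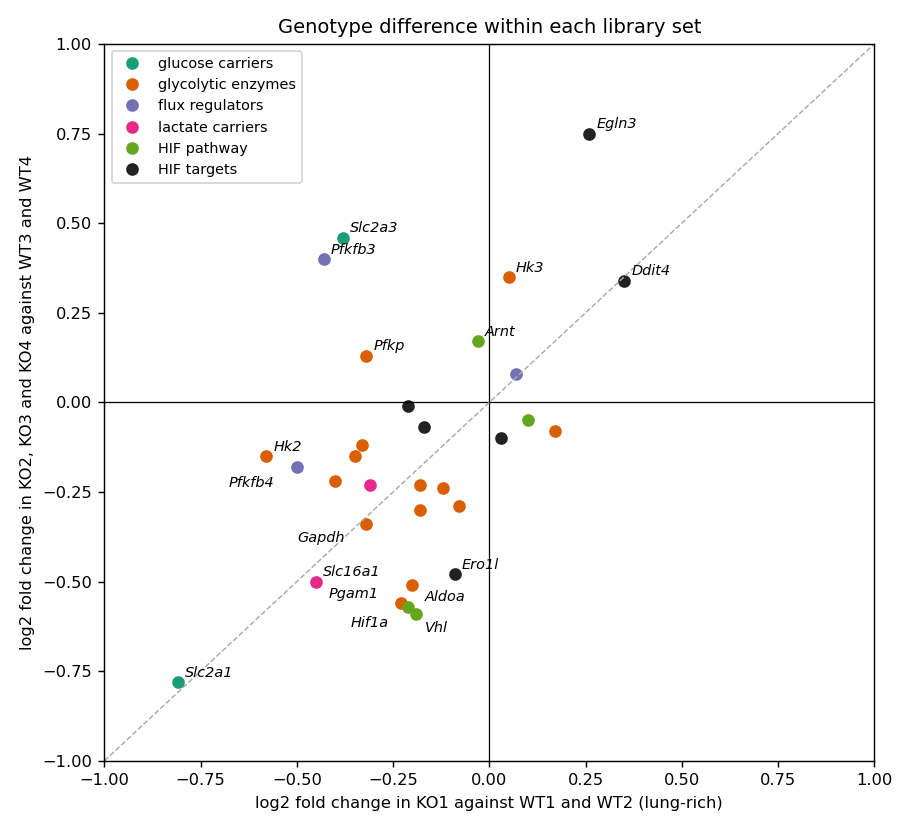
Log2 fold change within the lung-rich libraries (horizontal axis, KO 1 against WT 1 and WT 2) and within the other 5 (vertical axis, KO 2 to 4 against WT 3 and WT 4) for the 31 genes tested in both, colored by role, with the dashed line marking equal values. Slc2a1 lies close to the line at -0.81 and -0.78, while Pfkfb3 and Slc2a3 lie on opposite sides of 0 in the 2 sets.

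Promoter sequences are shown for 4 genes: Slc2a1, with the lowest fold change; Pgam1, the enzyme with the lowest fold change in the set-adjusted fit; Hk3, the enzyme that rose; and Vhl, whose genotypes did not overlap. They are the 250 bases before the RefSeq start on GRCm38.p6, 5′ to 3′ on the gene's strand, and capitals mark the HIF core letters ACGTG or GCGTG on either strand.
Slc2a1: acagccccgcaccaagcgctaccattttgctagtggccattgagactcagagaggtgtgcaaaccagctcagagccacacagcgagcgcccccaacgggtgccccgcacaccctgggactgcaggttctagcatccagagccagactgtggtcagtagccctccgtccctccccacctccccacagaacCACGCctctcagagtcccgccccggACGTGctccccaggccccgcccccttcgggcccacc
Pgam1: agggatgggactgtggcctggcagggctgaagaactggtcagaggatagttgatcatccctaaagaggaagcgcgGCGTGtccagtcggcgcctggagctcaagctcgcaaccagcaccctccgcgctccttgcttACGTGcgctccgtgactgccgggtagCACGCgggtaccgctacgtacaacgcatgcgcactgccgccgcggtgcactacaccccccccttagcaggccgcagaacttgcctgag
Hk3: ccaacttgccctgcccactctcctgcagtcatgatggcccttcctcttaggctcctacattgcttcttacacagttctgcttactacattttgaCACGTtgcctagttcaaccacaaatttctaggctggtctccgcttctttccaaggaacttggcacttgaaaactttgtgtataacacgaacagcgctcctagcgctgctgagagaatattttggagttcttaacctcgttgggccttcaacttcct
Vhl: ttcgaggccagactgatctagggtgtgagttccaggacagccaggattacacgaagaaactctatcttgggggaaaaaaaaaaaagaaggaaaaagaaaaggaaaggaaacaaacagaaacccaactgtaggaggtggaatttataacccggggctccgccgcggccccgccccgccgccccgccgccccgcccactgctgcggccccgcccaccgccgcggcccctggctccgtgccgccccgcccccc
The windows are chr4:119108495-119108744 (plus) for Slc2a1, chr19:41911621-41911870 (plus) for Pgam1, chr13:55021386-55021635 (minus) for Hk3 and chr6:113623744-113623993 (plus) for Vhl. Slc2a1 held 2 cores, beginning 61 and 36 bases before the start, Pgam1 held 3, Hk3 held 1 and Vhl held 0. RefSeq windows were found for 30 of the 32 genes, all but Slc2a3 and Bnip3l. Of their 39 windows 32 held a core (82.1%), against 38.6% of 32851 windows of the same length. Among the 7120 windows with at least 18 CG pairs, the median of the 39, 69.6% held one. The 82.1% also covers windows with fewer CG pairs, so these shares are not matched for CG pairs. Genes with no core in any window were Gpi1, Tpi1 and Vhl. Both Slc2a1, which fell, and Hk3, which rose, held the letters, and a match of letters is a description, not a binding site.

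The flux regulators set how fast the committed steps run. Pfkfb3, which makes the phosphofructokinase activator fructose 2,6-bisphosphate, measured 167, 196, 243 and 239.9 CPM across WT 1 to 4, against 140.4, 306, 335 and 311 across KO 1 to 4. KO 2 to 4 stood above all other libraries and KO 1 below all. It rose within the other 5 libraries (log2 fold change 0.40, adjusted p = 8.96e-08, edgeR) and had -0.43 in the lung-rich ones, and the difference between the sets passed (0.76, adjusted p = 0.00125, edgeR). Its set-adjusted value of 0.13 did not pass (adjusted p = 0.595, edgeR). Pfkfb4, a related enzyme, was at 59.0 to 84.2 CPM in WT and 47.3 to 75.7 CPM in Tgfbr2_KO and fell in the set-adjusted fit (-0.27, adjusted p = 0.0364, edgeR), a call lost without WT 3, WT 4, KO 2, KO 3 or KO 4. Pdk1, which blocks entry of pyruvate into the citric acid cycle, lay at 16.7 to 24.8 CPM in all libraries and did not pass (0.10, adjusted p = 0.611, edgeR).

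Both lactate carriers had negative fold changes in the set-adjusted fit. Slc16a1 encodes MCT1, which carries lactate and pyruvate, and measured 22.0, 29.6, 39.4 and 39.8 CPM across WT 1 to 4, against 19.9, 26.7, 30.3 and 26.8 across KO 1 to 4. It fell in the set-adjusted fit (-0.46, SE 0.10, adjusted p = 0.0156, edgeR), with -0.50 within the other 5 libraries and -0.45 within the lung-rich ones. That call was lost without WT 3 or without WT 4, with fold changes of -0.52 to -0.40 over all fits that left out 1 library. Slc16a3 encodes MCT4, the export carrier of glycolytic cells. It was at 58.4 to 94.6 CPM in WT and 50.7 to 92.5 CPM in Tgfbr2_KO and did not pass (-0.24, adjusted p = 0.0824, edgeR).

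Among the HIF pathway genes, Hif1a and Vhl fell in the set-adjusted fit, Arnt and Egln1 did not pass. Hif1a (ENSMUSG00000021109, GRCm38 chr12:73901375-73947530, plus strand), which encodes the oxygen-regulated subunit, measured 109.8, 128, 211 and 211 CPM across WT 1 to 4, against 108, 145, 144 and 137 across KO 1 to 4. WT 3 and WT 4 stood above all others. The log2 fold change was -0.42 (SE 0.09, adjusted p = 0.0169, edgeR) in the set-adjusted fit, -0.57 within the other 5 libraries and -0.21 within the lung-rich ones, with a difference between the sets of -0.43 (adjusted p = 0.0146, edgeR). Vhl (ENSMUSG00000033933, GRCm38 chr6:113623959-113631633, plus strand), the part of the ubiquitin ligase that binds HIF-1α, measured 24.0, 22.0, 26.9 and 26.2 CPM across WT 1 to 4, against 21.0, 17, 17.9 and 18 across KO 1 to 4, with no overlap. Vhl and Slc2a1 were the 2 of 32 genes with KO below WT in every library, against 2.71% of all tested genes, and 0 of 32 had KO above, against 4.19%. The log2 fold change of Vhl was -0.43 both pooled (adjusted p = 0.157, edgeR) and in the set-adjusted fit (adjusted p = 0.02, edgeR). The calls of Hif1a and Vhl were lost without WT 3 or without WT 4, with fold changes of -0.57 to -0.40 and -0.59 to -0.40 over all fits that left out 1 library. Arnt, the constant partner of HIF-1α, was at 88.6 to 109 CPM in WT and 91.9 to 124 CPM in Tgfbr2_KO (0.12, adjusted p = 0.11, edgeR), and Egln1, the main oxygen-sensing hydroxylase, at 35.8 to 42.7 and 33.2 to 46.1 CPM (0.03, adjusted p = 0.811, edgeR).

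Of the 7 further HIF targets 1 rose (Ddit4), 1 fell (Ero1l) and 5 did not pass in the set-adjusted fit. These counts are close to the shares of all tested genes, 8.59% higher and 7.89% lower. Their median log2 fold change in the set-adjusted fit was -0.03, against -0.20 for the 14 enzymes. Over all 8 libraries with genotype only, the medians were -0.09 for these targets and -0.08 for the enzymes. No test was made between these medians, and many of the enzymes are HIF targets too. Ero1l, an oxidase that forms disulfide bonds in the endoplasmic reticulum, measured 54.1, 57.9, 60.9 and 60.2 CPM across WT 1 to 4, against 55.0, 41.4, 45.4 and 43.6 across KO 1 to 4. KO 2 to 4 lay below every other library and KO 1 among the WT values. It fell in the set-adjusted fit (-0.31, adjusted p = 0.0457, edgeR), a call lost without any one of WT 2, WT 3, WT 4, KO 2, KO 3 and KO 4, and with library totals as the only scaling. Its effect differed between the sets (-0.45, adjusted p = 0.00831, edgeR).

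Ddit4, an inhibitor of the growth kinase mTORC1 that stress and hypoxia induce, measured 16.7, 15.2, 6.31 and 5.43 CPM across WT 1 to 4, against 21.2, 7.92, 7.44 and 6.65 across KO 1 to 4. The lung-rich libraries lay above all others in both genotypes. Within each set KO lay above WT, and the set-adjusted log2 fold change was 0.37 (adjusted p = 0.0338, edgeR), while the pooled one was -0.01. Its call was kept only when WT 1 was the library left out. The mitophagy receptors Bnip3 and Bnip3l had -0.08 and -0.03 (adjusted p = 0.496 and 0.768, edgeR), at 14.3 to 20.5 and 87.6 to 119 CPM over all libraries. P4ha1, a prolyl hydroxylase of collagen, lay at 75.4 to 86.1 CPM (-0.06, adjusted p = 0.511, edgeR). Egln3, a HIF-induced hydroxylase, and Ankrd37, an ankyrin-repeat protein, were at or under 2.05 CPM in every library and did not pass (0.57 and 0.40, adjusted p = 0.22 and 0.335, edgeR). Ankrd37 exons overlap those of Ufsp2 (up to 26.7 CPM) on the opposite strand, so its values are uncertain.

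With genotype in the model, 19 of the 32 genes were lower and 5 higher in the lung-rich libraries (edgeR adjusted p under 0.05), against 27.6% and 30.9% of all tested genes. Of the 14 enzymes 12 were lower, all but Hk1 and Pfkl, with a median log2 difference of -0.54 between lung-rich and other libraries. Summed over the 14, the enzymes were at 2532, 2667 and 2280.2 CPM in the lung-rich WT 1, WT 2 and KO 1, and at 3259 to 3919 CPM in the other 5. Of the 7 HIF targets 4 were higher in the lung-rich libraries (Ddit4, Ankrd37, Bnip3 and Bnip3l) and 0 lower, with a median of 0.32. Summed, they were at 285, 296 and 294 CPM in the lung-rich WT 1, WT 2 and KO 1 and at 228 to 263 CPM in the other 5. Differences were largest for Ankrd37 (2.15), Ddit4 (1.48), Hk3 (-1.0) and Hk2 (-0.98). Fewer cells of a type and less RNA per cell cannot be told apart in such bulk libraries. Epas1, which encodes HIF-2α and is high in lung endothelium, was chosen after its values were seen. It was at 1886, 1246 and 2474 CPM in the lung-rich WT 1, WT 2 and KO 1 and at 82.0 to 104 CPM in the other 5. The part of other lung cells in these differences was not tested.

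**Figure D4:**
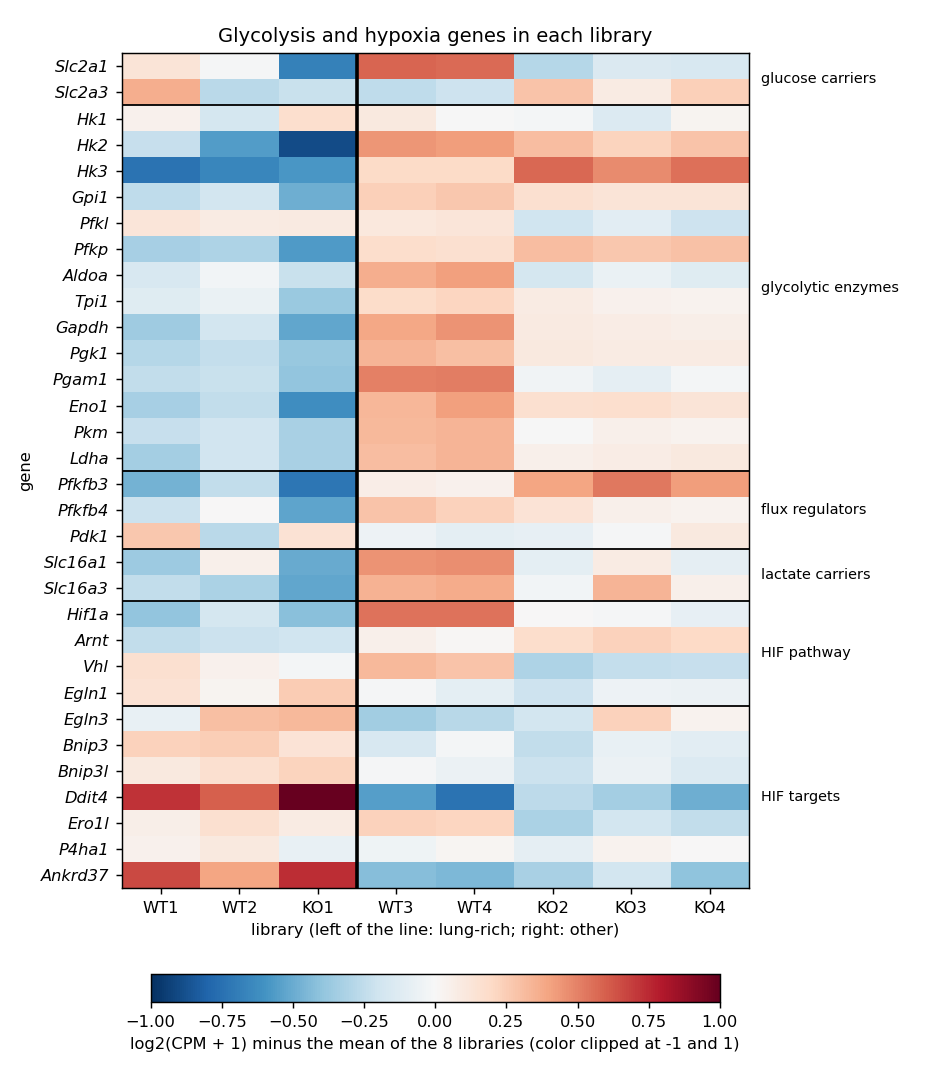
Level of each of the 32 genes (rows, grouped by role) in each library (columns), as log2(CPM + 1) minus the mean of the 8 libraries, with the lung-rich libraries left of the vertical line. Most enzymes are low on the left and highest in WT 3 and WT 4, Slc2a1 is low in KO 1 to 4, and Ddit4 and Ankrd37 are high on the left.

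The difference of the genotype effect between the library sets passed for 7 of the 32 genes (Pfkp, Aldoa, Pgam1, Pfkfb3, Hif1a, Vhl and Ero1l, edgeR interaction test), against 18.9% of all tested genes, a share close to that of the background. In these 7 the effect was more negative in the other 5 libraries for Aldoa, Pgam1, Hif1a, Vhl and Ero1l, and more positive for Pfkp and Pfkfb3.

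Genes of neighbouring pathways were counted from lists of other glycolysis, pentose phosphate, glycogen, HIF target and HIF machinery genes. Of the 71 genes of these 5 lists that were tested over all 8 libraries, edgeR called 0 higher and 0 lower. At an unadjusted p under 0.05 in edgeR there were 9 of the 71, against 1328 of all 12750 tested genes. DESeq2 tested 83 genes of the lists and called 3 higher and 1 lower, against 314 and 152 of 17285 genes. The pentose phosphate pathway branches off after hexokinase and supplies NADPH. In the set-adjusted fit 4 of its 7 genes fell (Pgd, Tkt, Taldo1 and Pgls), 0 rose and 3 did not pass. Of all tested genes 7.89% were lower and 8.59% higher. The median log2 fold change of the 7 was -0.24. After summing WT 3 with WT 4 and dropping KO 4, edgeR called 0 of the 7, with adjusted p-values of 0.0719 for Pgd, 0.118 for Tkt, 0.117 for Taldo1 and 0.11 for Pgls. Tkt, a transketolase, measured 251, 279.6, 439.7 and 439.7 CPM across WT 1 to 4, against 225, 328, 336 and 322 across KO 1 to 4 (-0.36, adjusted p = 0.00603, edgeR). Like the enzymes above, it was lower in the lung-rich libraries (-0.65). Of 24 other HIF targets 5 fell and 2 rose in the set-adjusted fit, where 7.89% of all tested genes were lower and 8.59% higher, and their median was -0.04. Bhlhe40, a transcriptional repressor, measured 249.9, 253, 395 and 401 CPM across WT 1 to 4, against 182, 229, 227 and 229 across KO 1 to 4, with no overlap (-0.68, adjusted p = 0.000832, edgeR). It was the 1 gene of this list called after summing WT 3 with WT 4 and dropping KO 4 (adjusted p = 0.0346, edgeR). Mxi1, a MYC antagonist, had -0.39 (adjusted p = 0.022, edgeR), and the transferrin receptor Tfrc had 0.92 (adjusted p = 0.0216, edgeR). Of 8 other genes of the HIF machinery 1 rose, the hydroxylase Egln2 (0.23, adjusted p = 0.0183, edgeR), and 0 fell. After the same summing, Mxi1, Tfrc and Egln2 were not called (adjusted p = 0.159, 0.211 and 0.305, edgeR).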

How the data were processed

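The table holds estimated counts per gene from salmon, which the authors merged over libraries and deposited. Per the submitters' processing notes, the build was GRCm38 and DESeq2 1.40.1 was used. Not given in the sources used here are the salmon version, its strand setting, the annotation and any filters on reads. Values were whole in 81.8% to 84.8% of entries per library and were rounded to whole counts. Columns were matched to samples by genotype and number. With 15597300 to 37654100 counts per library, a floor of 3 counts is 0.0797 to 0.192 CPM, which covers counting error only.

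Genes were kept by filterByExpr (minimum count 10), scaled by the trimmed mean of M values and tested in edgeR 4.0.16 (robust quasi-likelihood F test, R 4.3.3) with Benjamini-Hochberg adjustment over all tested genes. The same test was run with the library set in the model, within each set, and for the difference between sets. Within the lung-rich libraries it was run without the robust option. DESeq2 1.42.0 was an alternative, as were other scalings, filters, a replicate block and leaving out libraries. The procedure was tested on simulated data. Intervals are 95%. The library sets were defined from marker genes of these libraries and are not groups of the study.

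Gene positions are from GENCODE M21 on GRCm38, and promoter windows from RefSeq. Values per kilobase use all annotated exons of a gene merged, which can be longer than a single transcript, and the shares depend on these lengths. The text names all 32 genes, up to 4 genes per neighbouring list with the smallest adjusted p in the set-adjusted fit, Tgfbr2, Lyz2, and others where stated; 1 gene that this rule names is not reported here. The genes, lists and library sets were chosen with earlier results of these data known.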

Additional observations from a re-analysis of the deposited data

Results flagged for a closer look

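In 14 of 64 groups of 4 libraries, 1 library stood apart by Dixon's test at the 95% level, where chance flags about 1 in 20 groups. In 13 of the 14 it was KO 1, the KO library of the lung-rich set, and the same library recurs, so these are not independent. KO 1 was the lowest of the 4 KO libraries for the hexokinases Hk2 (48.4 CPM) and Hk3 (42.7), for Gpi1 (242), Pfkp (125), Tpi1 (82.4), Gapdh (502), Pgk1 (84.7), Eno1 (199), Pkm (353) and Ldha (169), and for the regulator Pfkfb3 (140.4). It was the highest for the HIF targets Ddit4 (21.2 CPM) and Ankrd37 (2.05). WT 1 was the highest of the 4 WT libraries for the glucose carrier Slc2a3 (21.8 CPM).

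For 7 genes the genotype effect differed between the library sets (edgeR interaction test, adjusted p under 0.05), a share of the 32 close to the 18.9% of all tested genes. The log2 fold change in the other 5 libraries minus that in the lung-rich ones was 0.76 for Pfkfb3 and 0.38 for Pfkp. It was -0.38 for Aldoa, -0.40 for Pgam1, -0.43 for Hif1a, -0.45 for Ero1l and -0.47 for Vhl. Adjusted p-values from edgeR ran from 0.00125 for Pfkfb3 to 0.0281 for Vhl, and the lung-rich side rests on KO 1 alone.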

How the results depend on the processing

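Over all 8 libraries edgeR called 25 genes higher and 13 lower in Tgfbr2_KO, none of them among the 32. Counts were 53 and 28 with library totals only, 54 and 26 with a filter at 10 CPM, and 314 and 152 in DESeq2, which called 2 of the 32 lower. Deviations of same-numbered libraries correlated at 0.892, -0.853, 0.811 and 0.848. Same-numbered libraries share a library set except for WT 2 and KO 2, so these values cannot show whether the numbers mark pairs. A replicate block called 0 genes higher and 0 lower, and none of the 32. Leaving out 1 library gave 0 to 619 genes higher, 0 to 241 lower and 0 to 3 of the 32 lower, all calls coming without KO 1. The set-adjusted fit gave 1095 higher and 1006 lower, 2 and 13 of them among the 32. Counts were 2493 and 2363 in the other 5 libraries (5 and 17 of the 32), 506 and 292 in the lung-rich ones (0 and 1), 70 and 115 after summing WT 3 with WT 4 and dropping KO 4 (0 and 1). Of the fits chosen after seeing the data, the set-adjusted model gave 1175 and 1260 in DESeq2 (2 and 16 of the 32), 1002 and 1092 with DESeq2 size factors (2 and 14), 1351 and 875 with library totals (3 and 12), and 61 and 109 without KO 4 and WT 4 (0 and 1). Of set-adjusted fits leaving out 1 library, counts were 1159 and 1127 without WT 1 (2 and 15 of the 32), 947 and 922 without WT 2 (1 and 12), 307 and 488 without WT 3 (0 and 4), 318 and 451 without WT 4 (0 and 2), 2047 and 1946 without KO 1 (4 and 16), 664 and 728 without KO 2 (0 and 10), 533 and 681 without KO 3 (0 and 10), and 516 and 627 without KO 4 (0 and 8). Ddit4 turned from -0.01 to 0.37 in the set-adjusted fit, 0.35 in the set-adjusted fit in DESeq2 and with size factors, 0.40 with library totals and 0.38 without WT 1; the cause was not tested. Arnt passed as higher in the set-adjusted fit when library totals were the only scaling. Depth limits Egln3 and Ankrd37, which lie at or under 2.05 CPM.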

Other observations

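Among 24 other tested glycolysis genes, 3 fell and 1 rose in the set-adjusted fit (edgeR adjusted p under 0.05), against 7.89% lower and 8.59% higher of all tested genes, and their median log2 fold change was -0.08. Mpc1, a subunit of the carrier that brings pyruvate into mitochondria, measured 39.2, 35.5, 55.4 and 54.8 CPM across WT 1 to 4, against 31.6, 32.3, 34.8 and 33.2 across KO 1 to 4, with no overlap between genotypes (-0.55, adjusted p = 0.00764, edgeR). The sugar carrier Slc2a6 had -0.30 and the aldolase Aldoc -0.76 (adjusted p = 0.0101 and 0.0422, edgeR). Eno3, the muscle-type enolase, was at 10.1 to 11.4 CPM in WT and 12.4 to 14.9 CPM in Tgfbr2_KO, with no overlap (0.38, adjusted p = 0.0161, edgeR).

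Of 8 glycogen genes 1 rose and 1 fell in the set-adjusted fit, close to those shares of all tested genes. Both are glycogen phosphorylases, which release glucose 1-phosphate from glycogen. Pygb was at 56.9 to 61.2 CPM in WT and 65.6 to 71.7 CPM in Tgfbr2_KO, with no overlap (0.24, adjusted p = 0.012, edgeR). Pygl measured 26.6, 36.4, 69.7 and 71.2 CPM across WT 1 to 4, against 26.8, 36.4, 46.3 and 44.1 across KO 1 to 4 (-0.56, adjusted p = 0.031, edgeR). None of these 6 genes passed after summing WT 3 with WT 4 and dropping KO 4.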
